A study of Mus musculus with 36 samples.

Results

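U11 and U12 RNA and the 7 proteins that belong only to the U11/U12 particle were followed across 36 RNA-seq libraries, which makes 9 genes of the 25239 in the FPKM table (fragments scaled by gene length and by the library's mapped fragments). Rnu11 and Rnu12 were chosen by their difference between RfxCas13d and dRfxCas13d libraries, so their levels in that comparison are given as a description with no test. Snrnp25, Snrnp35, Snrnp48, Rnpc3, Zmat5, Zcrb1 and Pdcd7 were chosen by function, as the protein partners of both RNAs, although results of these data were already known. All 9 genes passed the filter on low values (2 or more libraries at 1 FPKM or higher), as did 13293 genes in all.

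N2a, a neuroblastoma line of the mouse, received plasmids for a nuclease and a crRNA by transfection, and RNA was taken 48 h later from sorted GFP-positive cells. RfxCas13d is an RNA-guided RNA-cutting enzyme, and dRfxCas13d is its catalytically dead form, which can bind but not cut. Each nuclease was used without a crRNA, with the non-targeting guide (NT crRNA), or with 1 of 7 guides against a transcript, namely Mapt crRNA 4, Mapt crRNA 6, Map2 crRNA 1, Map2 crRNA 3, Sik3-S crRNA 1, Sik3-S crRNA 8 or Rbfox3 crRNA 5, and each of the 18 groups had 2 libraries. The sample descriptions call the Rbfox3 guide crRNA 6 where the titles and the table call it crRNA 5. The study asked whether RfxCas13d cuts bystander RNA in these cells, and the comparison of active with dead nuclease addresses this. Transfection was transient, and how much plasmid the sorted cells carried was not measured here. A change in RNA per cell cannot be told apart from a change in the share of cells that carry it.

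Most introns of animal genes are removed by the major spliceosome. A small class, the U12-type introns, is removed by the minor spliceosome, in which U11 RNA pairs with the donor site at the start of the intron and U12 RNA pairs with the branch site near its end. U11 and U12 act as one joint particle held together by proteins that have no place in the major spliceosome. In humans, loss of function in this machinery causes developmental disorders, and the RNAs themselves carry no poly(A) tail.

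Both RNAs are short enough to show whole, and the letters that do this pairing are what sets them apart from other snRNAs. The sequences below are the GENCODE M21 transcripts on mm10, written 5′ to 3′ with T for U.
Rnu11: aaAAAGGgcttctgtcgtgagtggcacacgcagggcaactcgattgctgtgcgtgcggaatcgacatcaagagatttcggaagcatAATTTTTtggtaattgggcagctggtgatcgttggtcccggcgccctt
Rnu12: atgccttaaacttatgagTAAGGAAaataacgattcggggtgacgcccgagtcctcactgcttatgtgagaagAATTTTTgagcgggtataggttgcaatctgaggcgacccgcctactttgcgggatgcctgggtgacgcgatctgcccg
The first capitals in Rnu11 are AAAGG at bases 3 to 7, the longest stretch complementary to the U12-type donor letters TATCCTTT. The first capitals in Rnu12 are TAAGGAA at bases 19 to 25, the full complement of the branch site letters TTCCTTA. The second capitals in each are AATTTTT, at bases 87 to 93 of Rnu11 and 74 to 80 of Rnu12, the kind of U-rich run on which the Sm protein ring of snRNPs sits. Searched on the RNA strand in the first 134 bases of 136212 annotated transcripts, AAAGG occurred in 16.1% and AATTTTT in 0.859%. In the first 151 bases of 135643 transcripts, TAAGGAA occurred in 1.02% and AATTTTT in 0.967%.

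Rnu11 lies on chromosome 4 (132270080 to 132270213, minus strand) and Rnu12 on chromosome 15 (83149644 to 83149794, plus strand). The FPKM steps of Rnu11 fitted a gene length of 108 nt, with whole fragments in 23 of the 23 libraries above 0, and the 134 nt transcript fitted in 4 of 23. That length is the RefSeq entry, which lacks the first 27 bases, so the donor-pairing letters were outside the counted stretch. For Rnu12 the 150 nt RefSeq length fitted in 34 of 34 libraries. Gm28872, a noncoding gene on the opposite strand, overlaps Rnu11, and because strand use in counting is not given in the sources used here, reads from both cannot be told apart. The library kit selects mRNA by its poly(A) tail, so FPKM of both RNAs is the residue that passed selection, not the amount in the cell.

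The depth recovered from the FPKM steps was 10390000 to 16545000 fragments (median 13427500) in the 18 RfxCas13d libraries and 8685000 to 12170000 (median 10380000) in the 18 dRfxCas13d libraries. One fragment of Rnu12 was worth 0.403 to 0.768 FPKM and one of Rnu11 0.560 to 1.07 FPKM. The neuronal and neuroblastoma markers Tubb3, Stmn2 and Hand2 were at 1 FPKM or more in every library, while Th, Nefl and Nefm were under 1 in all. One library, RfxCas13d with NT crRNA replicate 1, held 403 FPKM summed over 6 liver transcripts, against a median of 1.76 over all libraries, so the differences between nucleases with NT crRNA were also computed without it. In the RfxCas13d groups the targeted Sik3, Map2 and Mapt were at 8.01 to 12.4% of their NT level, and in the dRfxCas13d groups at 78.1 to 103%. Rbfox3 was nearly silent in these cells, at 0.018 to 0.046 FPKM in its own RfxCas13d group and 0.041 to 0.113 FPKM in its dRfxCas13d group.

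Rnu12 was clearly detected in every RfxCas13d library with a targeting crRNA and near the detection limit in the matched dRfxCas13d libraries. It had 8.98 to 29.9 FPKM (median 22.8) in the 14 RfxCas13d targeting libraries, against 0 to 3.50 FPKM (median 1.59) in the 14 dRfxCas13d targeting libraries. The groups did not overlap, with 14 of 14 RfxCas13d libraries above the highest dRfxCas13d one. In fragments this was 612 in RfxCas13d libraries (14 to 63 each) against 35 in dRfxCas13d libraries (0 to 6 each). Scaled by depth, the ratio of RfxCas13d to dRfxCas13d was 14.2 (95% exact interval 10.1 to 20.6). Intervals and floors here cover counting error only. The share of all genes whose libraries separate without overlap was not counted, here or for the genes below.

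**Figure D1:**
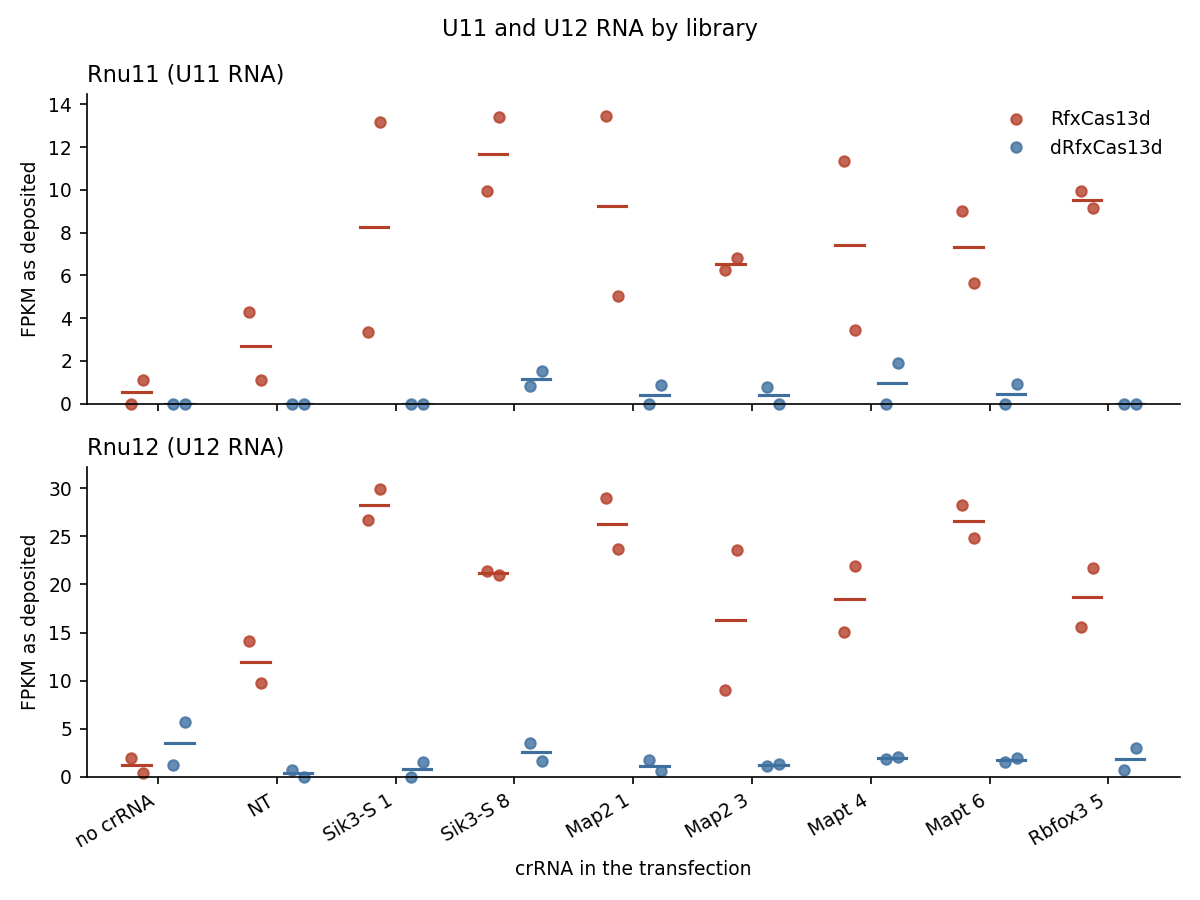
FPKM of Rnu11 (top) and Rnu12 (bottom) in each of the 36 libraries, by crRNA, RfxCas13d in red left of dRfxCas13d in blue; points are libraries and short lines the mean of 2. All 14 RfxCas13d targeting libraries lie above all 14 dRfxCas13d targeting libraries for both RNAs, and without a crRNA both nucleases lie low.

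Without targeting the picture split between the NT guide and no guide. With NT crRNA, Rnu12 had 14.1 and 9.72 FPKM in RfxCas13d cells, against 0.698 and 0 FPKM in dRfxCas13d cells. These are 56 fragments against 1, and the interval of their ratio was wide (5.90 to 1377). Leaving out the library with liver transcripts, the log2 difference on the log2(FPKM + 1) scale was 3.02, against 3.27 ± 0.51 (SE) with it. With no crRNA, Rnu12 had 1.98 and 0.406 FPKM in RfxCas13d cells, against 1.27 and 5.66 FPKM in dRfxCas13d cells. Here the ranges overlapped, with 5 fragments against 12 (ratio 0.310, interval 0.0856 to 0.945), and the highest value was a single dRfxCas13d library.

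Rnu11 was also higher in the RfxCas13d targeting libraries, at a lower FPKM than Rnu12. It had 3.37 to 13.4 FPKM (median 9.07) in the 14 RfxCas13d targeting libraries, against 0 to 1.92 FPKM (median 0) in the 14 dRfxCas13d targeting libraries, of which 8 held no fragment. The groups again did not overlap. The sums were 170 fragments (4 to 24 each) against 8 (0 to 2 each), a ratio scaled by depth of 17.3 (8.56 to 40.6). With NT crRNA, Rnu11 had 4.29 and 1.13 FPKM in RfxCas13d cells and was at 0 in both dRfxCas13d libraries. Its 9 fragments against 0 give no ratio, and the exact interval of the ratio scaled by depth starts at 1.21. With the dRfxCas13d pair set at the floor of 3 fragments the ratio is 1.84, which leaves out the counting error of the 9. Of the 9, 7 came from the library with liver transcripts, and the 2 fragments of the other library allow no fold to be given. The fitted difference was 1.73 with both libraries and 1.076 without the liver one. Without a crRNA, Rnu11 had 0 and 1.13 FPKM in RfxCas13d cells and 0 in both dRfxCas13d libraries, and 2 fragments against 0 allow no fold to be given.

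The height of the RNAs varied between the 7 guides less clearly than between nucleases. By group mean, Rnu12 was highest with RfxCas13d and Sik3-S crRNA 1 (28.3 ± 2.3 FPKM, SD, n = 2), followed by Mapt crRNA 6 (26.6 ± 2.4) and Map2 crRNA 1 (26.3 ± 3.8), and the ranges of these 3 overlapped. Next came Sik3-S crRNA 8 (21.2 ± 0.35), Rbfox3 crRNA 5 (18.7 ± 4.4), Mapt crRNA 4 (18.5 ± 4.8), Map2 crRNA 3 (16.3 ± 10) and NT crRNA (11.9 ± 3.1), each overlapping its neighbour. All the other groups followed, from dRfxCas13d alone (3.47 ± 3.1) down to dRfxCas13d with NT crRNA (0.349 ± 0.49). RfxCas13d alone stood at place 15 of 18. Of the 17 pairs of neighbours in this order, 14 overlapped for Rnu12 and 16 for Rnu11.

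For Rnu11 the highest group by mean was RfxCas13d with Sik3-S crRNA 8 (11.7 ± 2.5 FPKM) and the lowest of the 7 guides was Map2 crRNA 3 (6.53 ± 0.41). Both libraries of Map2 crRNA 3 lay above the NT group (2.71 ± 2.2). Sik3-S crRNA 1 and Mapt crRNA 4 overlapped the NT group, reaching down to 3.37 and 3.46 FPKM against an NT high of 4.29 FPKM. With Rbfox3 crRNA 5, whose target was nearly silent, Rnu11 had 9.97 and 9.14 FPKM and Rnu12 had 15.6 and 21.8 FPKM in RfxCas13d cells. The matched dRfxCas13d cells had 0 and 0 FPKM of Rnu11 and 0.671 and 2.98 FPKM of Rnu12. The longest run of spacer bases complementary to either RNA was 4 to 8 of the 22 in the 7 targeting and NT spacers.

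The genes whose 9 log2 fold changes (RfxCas13d over dRfxCas13d, one per crRNA condition) lay nearest to those of Rnu11 were H2bu2, H4c9, Vaultrc5, Snord42b and H3c11, at root mean square differences of 0.48 to 0.71 log2 units. Nearest to Rnu12 were Snora78, H4c9, Rnu11, Snord104 and H2bu2, at 0.85 to 1.15. H2bu2, H4c9 and H3c11 encode histones, whose replication-dependent mRNAs end in a stem-loop, not a poly(A) tail, and the Snord and Snora genes encode snoRNAs, which guide rRNA modification. H4c9 had 14.8 to 34.0 FPKM (median 24.4) in RfxCas13d targeting libraries, against 0.984 to 5.41 FPKM (median 2.70) in dRfxCas13d targeting libraries. Seen from Rnu11, Rnu12 was only at place 23 among all genes.

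The mean log2 fold change was 3.86 for Snord104 and 3.25 for Snora78, against 3.21 for Rnu12, and 2.74 for Snord42b, against 2.71 for Rnu11. A further list held 16 short RNAs without a tail, such as the vault, RNase P and U3 RNAs, of which 7 were in the table and 6 were tested. Of these, 5 passed with a higher level in RfxCas13d targeting libraries, where 40.6% of all genes did, and the median log2 fold change of the 6 was 0.91. Terc did not pass, at -0.32 (adjusted p = 0.093, limma). Of 10 major snRNAs 1 was in the table, Rnu6, which did not pass either, at -0.17 (adjusted p = 0.38, limma). Of 2 other minor snRNAs 0 were in the table. Vaultrc5, a vault RNA, rose by 2.17 ± 0.19 (SE), and Rmrp, the RNA of the RNase MRP enzyme, rose by 1.54 ± 0.31 with 96.0 FPKM in one library, RfxCas13d with Sik3-S crRNA 8 replicate 2. Rpph1, the RNA of RNase P, rose by 0.85 ± 0.14. Without a crRNA it stood at 8.67 and 12.4 FPKM in RfxCas13d cells, against 45.5 and 41.4 FPKM in dRfxCas13d cells. The part of poly(A) selection in the differences of Rnu11 and Rnu12 was not tested.

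The protein-coding neighbours did not move with the RNAs. Poldip3, which starts 260 bases from Rnu12 on the opposite strand, had 76.0 to 95.2 FPKM (median 84.4) in RfxCas13d targeting libraries, against 80.2 to 102 FPKM (median 96.1) in dRfxCas13d targeting libraries, and fell by 0.11 on the log2 scale (adjusted p = 2.2e-06, limma). Taf12, at 4162 bases from Rnu11, fell by 0.07 (adjusted p = 0.025). Cyb5r3, at 3700 bases from Rnu12, differed by 0.04 ± 0.02 (adjusted p = 0.11).

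The mRNAs of the 7 proteins changed by far less than the RNAs, and in both directions. The RNAs were chosen by this difference and the proteins by function, so the gap in size follows in part from that choice. For the mean of the targeting crRNAs, Snrnp25 rose and Rnpc3 and Snrnp48 fell in RfxCas13d cells relative to dRfxCas13d cells under every alternative run, while Snrnp35, Zcrb1 and Pdcd7 passed as higher only under some. At an adjusted p under 0.05, 4 of the 7 rose and 2 fell, although 1 of the 4, Zcrb1, was lower under quantile normalization. The background was high, since 78.7% of all 13293 genes passed this test, 40.6% higher and 38.1% lower, so the count by itself does not set the proteins apart. With a fold of at least 2 added, 2.36% of all genes passed, and the largest change of the 7 proteins was 0.61 on the log2 scale. Their median log2 fold change was 0.11, beside 0.01 for all genes tested. Fold changes are limma estimates on the log2(FPKM + 1) scale after division by a median-of-ratios factor per library, with Benjamini-Hochberg adjustment over all genes tested. Since no label states that paired libraries of one group were separate cultures, p-values measure only the spread between these libraries.

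Zcrb1 had by far the highest FPKM of the 9 genes, at 148 ± 7.2 in RfxCas13d targeting libraries and 142 ± 11 in dRfxCas13d targeting libraries (SD, n = 14 each). Snrnp25 followed at 34.5 ± 2.9 and 22.7 ± 3.3 FPKM, and Pdcd7 was the lowest of the proteins at 7.06 ± 0.69 and 6.54 ± 0.59 FPKM. With targeting crRNAs in RfxCas13d cells, Rnu12 read at 22.3 ± 5.9 FPKM, between Snrnp25 and Zmat5, and Rnu11 at 8.57 ± 3.5 FPKM. For both RNAs this is the residue that passed poly(A) selection, so it does not rank their amounts against the mRNAs.

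**Figure D2:**
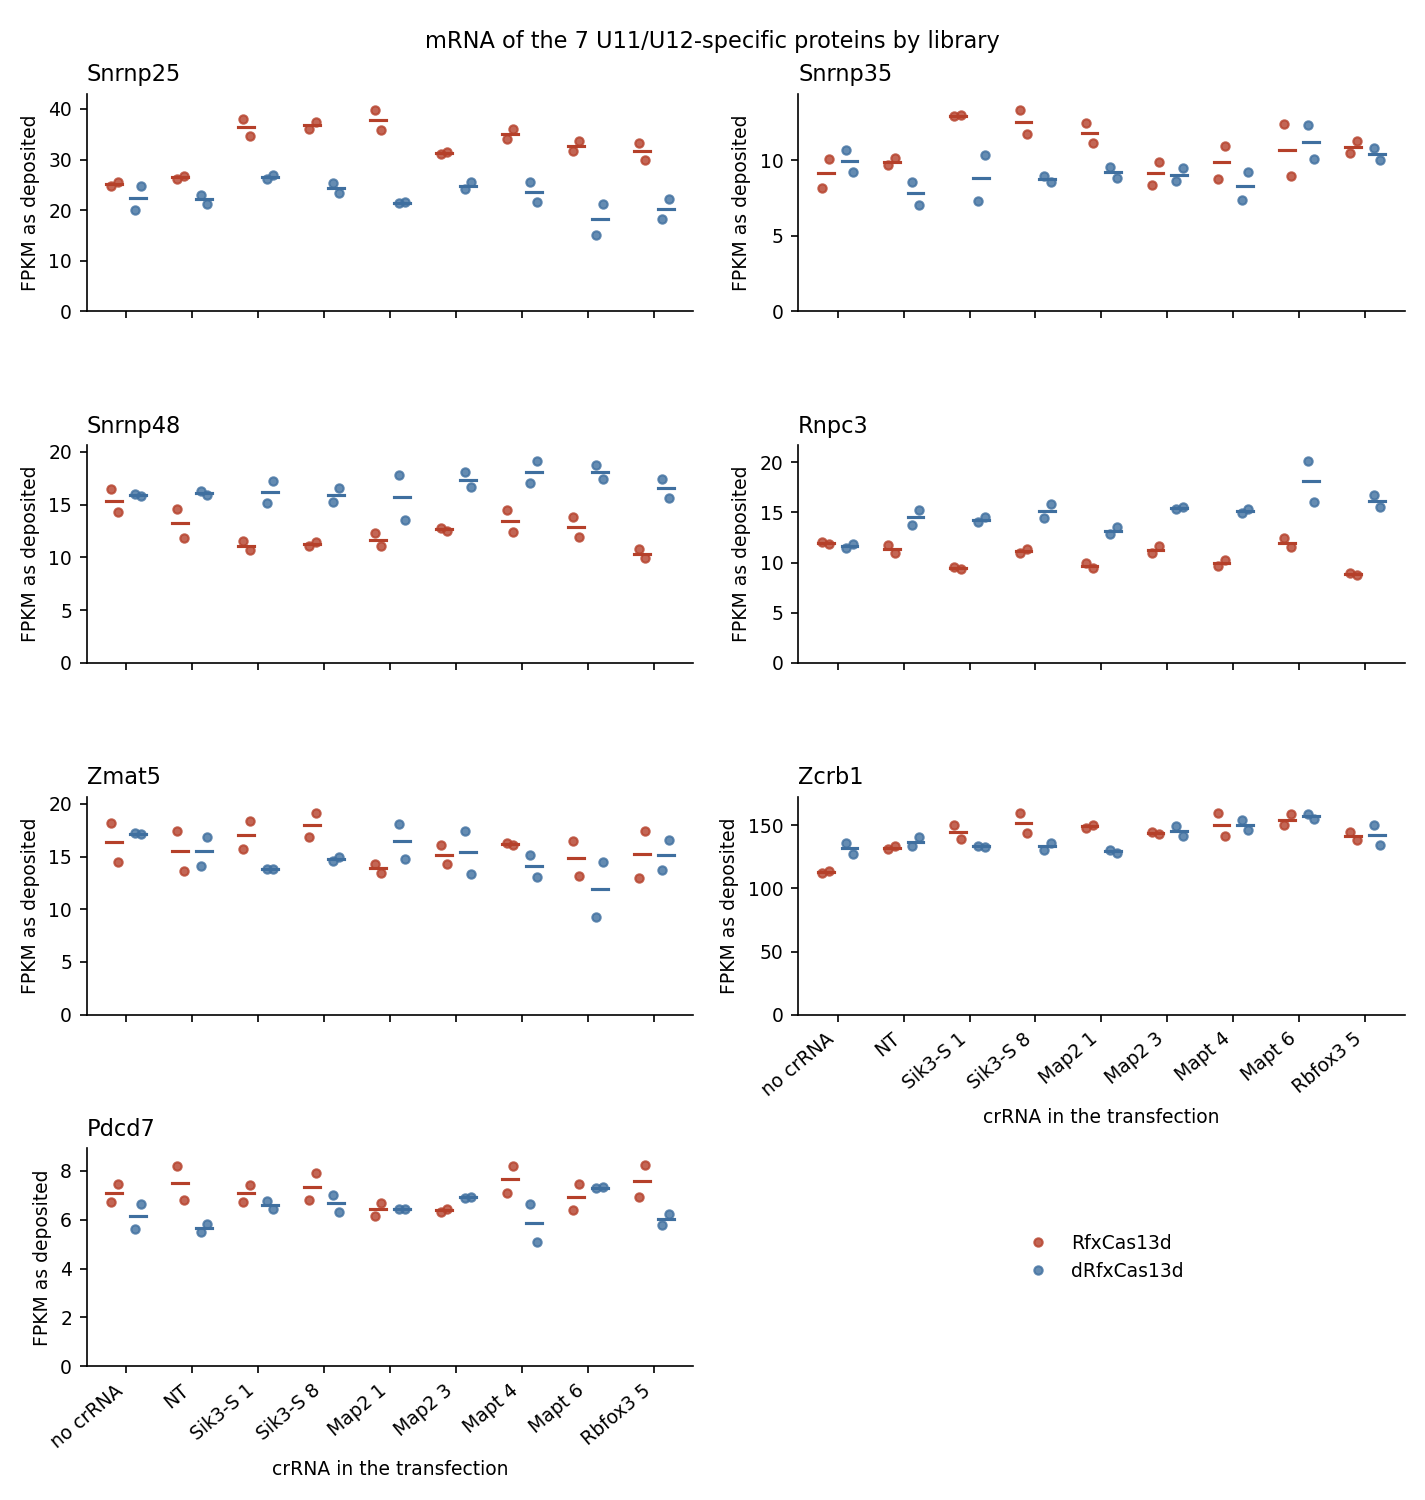
FPKM of the 7 U11/U12-specific protein genes in each library, by crRNA, RfxCas13d in red left of dRfxCas13d in blue; points are libraries, short lines the mean of 2, and each vertical axis starts at 0. Snrnp25 lies higher and Rnpc3 lower in all 14 RfxCas13d targeting libraries than in any of the 14 dRfxCas13d ones, and the other panels overlap. The share of all genes without overlap was not counted.

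Snrnp25, Snrnp35, Snrnp48 and Pdcd7 sit on the U11 side. Snrnp25 (chromosome 11, 32205415 to 32208984, plus strand) encodes a protein of the U11 particle. It had 29.9 to 39.9 FPKM (median 34.4) in RfxCas13d targeting libraries, against 15.2 to 27.0 FPKM (median 22.7) in dRfxCas13d targeting libraries. Its 14 and 14 libraries did not overlap (the share of all genes without overlap was not counted). It rose by 0.61 ± 0.04 (SE, adjusted p = 5.0e-12) and passed with all 7 guides, by 0.33 with Map2 crRNA 3 up to 0.84 with Mapt crRNA 6. The call with Map2 crRNA 3 was lost without dRfxCas13d replicate 1 (adjusted p = 0.10), RfxCas13d replicate 1 (adjusted p = 0.064) or RfxCas13d replicate 2 (adjusted p = 0.068) of that guide.

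Snrnp35 (chromosome 5, 124483134 to 124491124, plus strand) encodes the counterpart of the U1-binding protein of the major spliceosome. It had 8.37 to 13.3 FPKM (median 11.2) in RfxCas13d targeting libraries, against 7.26 to 12.3 FPKM (median 9.32) in dRfxCas13d targeting libraries, and the groups overlapped. It rose by 0.24 ± 0.06 (adjusted p = 0.00067) and passed with both Sik3-S guides and Map2 crRNA 1. The call with Map2 crRNA 1 was lost when any 1 of its 4 libraries was left out (adjusted p = 0.059 to 0.23). With Sik3-S crRNA 8 it was lost without RfxCas13d replicate 1 (adjusted p = 0.074) or dRfxCas13d replicate 2 (adjusted p = 0.051), and with Sik3-S crRNA 1 without dRfxCas13d replicate 1 (0.33, adjusted p = 0.12). After removal of the length trend described further on, its difference was 0.03 (adjusted p = 0.59).

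Snrnp48 (chromosome 13, 38204938 to 38227665, plus strand) encodes a protein which in humans touches the donor site. It had 9.93 to 14.5 FPKM (median 11.7) in RfxCas13d targeting libraries, against 13.5 to 19.1 FPKM (median 17.1) in dRfxCas13d targeting libraries, and 12 of 14 RfxCas13d libraries lay below the lowest dRfxCas13d one. It fell by 0.45 on the log2 scale (SE 0.04, adjusted p = 1.7e-09), or by 0.23 with the length trend removed, and passed as lower with all 7 guides. The call with Map2 crRNA 1 was lost without dRfxCas13d replicate 1 (-0.16, adjusted p = 0.31) or RfxCas13d replicate 2 (adjusted p = 0.12) of that guide, and the call with Mapt crRNA 4 without replicate 2 of dRfxCas13d (adjusted p = 0.082) or of RfxCas13d (adjusted p = 0.095).

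Pdcd7 (chromosome 9, 65346104 to 65359643, plus strand) encodes a protein which in humans links the U11 side to the Rnpc3 product on the U12 side. It had 6.14 to 8.26 FPKM (median 6.86) in RfxCas13d targeting libraries, against 5.11 to 7.33 FPKM (median 6.55) in dRfxCas13d targeting libraries. It rose by 0.11 ± 0.04 (adjusted p = 0.015), passed with Mapt crRNA 4 and Rbfox3 crRNA 5 alone among the guides, and was at -0.04 (adjusted p = 0.37) without the length trend. The Mapt crRNA 4 call was lost without replicate 2 of RfxCas13d (adjusted p = 0.11) or of dRfxCas13d (0.19, adjusted p = 0.21). The Rbfox3 crRNA 5 call was lost without RfxCas13d replicate 2 (0.17, adjusted p = 0.29) or either dRfxCas13d library (adjusted p = 0.15 and 0.051).

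Rnpc3 (chromosome 3, 113605067 to 113630149, minus strand) encodes the protein that binds U12 RNA directly and so bridges it to U11. It had 8.81 to 12.5 FPKM (median 10.1) in RfxCas13d targeting libraries, against 12.8 to 20.1 FPKM (median 15.3) in dRfxCas13d targeting libraries. Its libraries did not overlap (the share of all genes without overlap was not counted). It fell by 0.51 on the log2 scale (SE 0.03, adjusted p = 1.4e-13) and passed as lower with all 7 guides, by 0.37 with Map2 crRNA 1 and by 0.79 with Rbfox3 crRNA 5 at the ends of the range.

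Zmat5 (chromosome 11, 4704678 to 4737669, plus strand) encodes a zinc finger protein. It had 13.0 to 19.2 FPKM (median 16.1) in RfxCas13d targeting libraries, against 9.30 to 18.1 FPKM (median 14.5) in dRfxCas13d targeting libraries, and the groups overlapped. Its difference of 0.14 did not pass (95% interval 0.00 to 0.27, adjusted p = 0.059), nor did it pass with any single guide.

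Zcrb1 (chromosome 15, 93386097 to 93398334, minus strand) encodes a protein with an RNA recognition motif and a zinc knuckle. It had 139 to 160 FPKM (median 147) in RfxCas13d targeting libraries, against 128 to 159 FPKM (median 139) in dRfxCas13d targeting libraries. Its difference was 0.09 ± 0.02 (adjusted p = 0.00090), but it turned to -0.15 (adjusted p = 1.1e-06) under quantile normalization and to -0.03 (adjusted p = 0.20) without the length trend, so no direction is given.

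**Figure D3:**
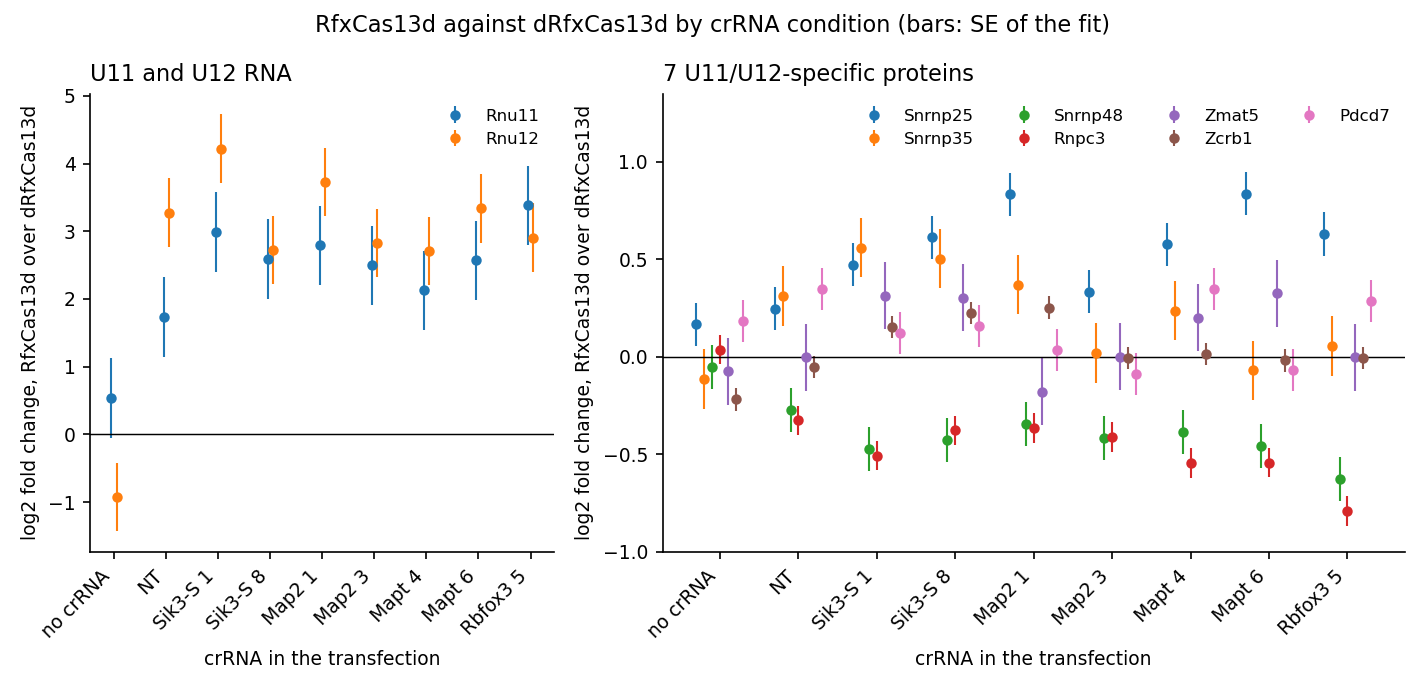
log2 fold change of RfxCas13d over dRfxCas13d in each of the 9 crRNA conditions, Rnu11 and Rnu12 on the left and the 7 proteins on the right, with vertical scales that differ; bars are the standard error of the fit. Both RNAs lie above 2 with all 7 guides, Snrnp25 lies above 0 and Snrnp48 and Rnpc3 below 0 with all 7, and the remaining proteins scatter around 0. With NT crRNA Rnu12 lies at 3.27, within its range over the 7 guides, Rnu11 at 1.73 and Rnpc3 at -0.33.

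By guide, 5 of the 7 proteins passed with Sik3-S crRNA 1, Sik3-S crRNA 8 and Map2 crRNA 1, 4 with Mapt crRNA 4 and Rbfox3 crRNA 5, and 3 with Map2 crRNA 3 and Mapt crRNA 6. Among all genes 51.8%, 51.5%, 52.8%, 54.7%, 51.2%, 46.1% and 54.1% passed in these comparisons, in the same order. The 3 that passed with every guide were Snrnp25, Snrnp48 and Rnpc3. Rnpc3 alone of the 3 also passed with every guide when any 1 library was left out and with the length trend removed. Without the trend, Snrnp25 missed the threshold with Sik3-S crRNA 1 (0.25, adjusted p = 0.070) and Map2 crRNA 3 (0.18, adjusted p = 0.20), and Snrnp48 passed with Rbfox3 crRNA 5 alone. The RNAs were higher with every guide, Rnu12 by 2.71 to 4.22 and Rnu11 by 2.13 to 3.38 log2 units, on a scale where the added 1 FPKM shrinks the difference of low genes.

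With NT crRNA, 2 of the 7 proteins passed, beside 22.3% of all genes. Rnpc3 had 11.77 and 10.97 FPKM in RfxCas13d cells, against 13.8 and 15.2 FPKM in dRfxCas13d cells, and fell by 0.33 (adjusted p = 0.0032). Without the library with liver transcripts it was at -0.38 (adjusted p = 0.010), and it missed the threshold when RfxCas13d with NT crRNA replicate 2 (adjusted p = 0.050014) or dRfxCas13d with NT crRNA replicate 2 (adjusted p = 0.059) was left out. Pdcd7 had 8.20 and 6.81 FPKM in RfxCas13d cells, against 5.50 and 5.80 FPKM in dRfxCas13d cells, and passed as higher by 0.35 (adjusted p = 0.023). That call did not hold without the liver library (0.23, adjusted p = 0.26) or without either dRfxCas13d library (adjusted p = 0.12 and 0.064). Snrnp48 missed the threshold at -0.27 (adjusted p = 0.087) and reached -0.42 (adjusted p = 0.036) without the liver library.

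With no crRNA, 1 of the 7 passed, beside 5.36% of all genes. Zcrb1 had 112 and 114 FPKM in RfxCas13d cells, against 128 and 136 FPKM in dRfxCas13d cells, and fell by 0.22 (adjusted p = 0.027). The call was lost without either RfxCas13d library (adjusted p = 0.14 and 0.10) or dRfxCas13d replicate 1 (adjusted p = 0.24). Snrnp25, Snrnp48 and Rnpc3 differed by 0.17 ± 0.11, -0.05 ± 0.11 and 0.04 ± 0.08 here, and none of the 3 passed.

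Whether the nuclease difference itself changed with the guide was tested as an interaction. For targeting against NT crRNA, 1 of the 7 proteins passed, beside 30.6% of all genes. Snrnp25 had a nuclease difference larger by 0.37 ± 0.12 with targeting crRNAs (adjusted p = 0.023). It lost the call without RfxCas13d with NT crRNA replicate 1 (adjusted p = 0.091) or replicate 2 (adjusted p = 0.066) or dRfxCas13d with NT crRNA replicate 1 (adjusted p = 0.13). For Rnpc3 and Snrnp48 the same interaction was -0.18 (95% interval -0.35 to -0.01, adjusted p = 0.099) and -0.17 (-0.42 to 0.08, adjusted p = 0.30), and without the liver library -0.13 (adjusted p = 0.37) and -0.03 (adjusted p = 0.92). For NT against no crRNA, 0 of the 7 passed by limma, beside 2.53% of all genes, and 1, Rnpc3, had an unadjusted p under 0.05 (-0.36 ± 0.11, adjusted p = 0.071).

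Within RfxCas13d cells, 2 of the 7 proteins passed for the mean of targeting against NT crRNA, beside 41.0% of all genes. Snrnp25 rose by 0.39 ± 0.08 (adjusted p = 0.00075), and Zcrb1 passed at 0.19 ± 0.04 (adjusted p = 0.0016), a comparison that was not run under other scalings. Without the liver library these were 0.38 (adjusted p = 0.022) and 0.17 (adjusted p = 0.038). Rnpc3 and Snrnp48 did not pass, at -0.11 (95% interval -0.23 to 0.01, adjusted p = 0.14) and -0.11 (-0.29 to 0.06, adjusted p = 0.30), and were at -0.06 and 0.03 without the liver library. These comparisons share the 2 NT libraries. For NT against no crRNA in RfxCas13d cells, 1 of the 7 passed, beside 14.7% of all genes, and this was Zcrb1 (0.23 ± 0.06, adjusted p = 0.0094). It was 0.24 (adjusted p = 0.047) without the liver library and lost the call without RfxCas13d replicate 1 (adjusted p = 0.070) or RfxCas13d with NT crRNA replicate 2 (adjusted p = 0.065).

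In dRfxCas13d cells, where no RNA is cut, the crRNA itself was compared. For NT against no crRNA, 1 of the 7 passed, beside 3.67% of all genes. Rnpc3 had 13.8 and 15.2 FPKM with NT crRNA, against 11.4 and 11.8 FPKM without a crRNA, and was higher by 0.30 ± 0.08 (adjusted p = 0.027). RfxCas13d cells without a crRNA had 12.1 and 11.8 FPKM. The call was lost without dRfxCas13d replicate 1 (adjusted p = 0.16) or replicate 2 (adjusted p = 0.084), or dRfxCas13d with NT crRNA replicate 2 (adjusted p = 0.21). For Mapt crRNA 6 against NT crRNA, 4 of the 7 passed as higher, beside 22.3% of all genes passing in either direction. They were Snrnp35 (0.49 ± 0.15), Pdcd7 (0.34 ± 0.11), Rnpc3 (0.31 ± 0.08) and Zcrb1 (0.21 ± 0.06). All 4 calls were lost without dRfxCas13d with Mapt crRNA 6 replicate 1 (adjusted p = 0.27 for Snrnp35, 0.14 for Pdcd7, 0.24 for Rnpc3 and 0.11 for Zcrb1). Without dRfxCas13d with NT crRNA replicate 1, Pdcd7 (adjusted p = 0.14), Rnpc3 (adjusted p = 0.083) and Zcrb1 (adjusted p = 0.099) were lost, and without its replicate 2 Snrnp35 (adjusted p = 0.20) and Pdcd7 (adjusted p = 0.073). Pdcd7 was also lost without dRfxCas13d with Mapt crRNA 6 replicate 2 (adjusted p = 0.081). With the other 6 guides, 0 of the 7 passed by limma, beside 0.0376% (Sik3-S crRNA 1), 3.46% (Sik3-S crRNA 8), 0.685% (Map2 crRNA 1), 2.92% (Map2 crRNA 3), 8.18% (Mapt crRNA 4) and 13.9% (Rbfox3 crRNA 5) of all genes. At an unadjusted p under 0.05, 1 of the 7 passed with each of Sik3-S crRNA 1, Map2 crRNA 3, Mapt crRNA 4 and Rbfox3 crRNA 5 and 0 with Sik3-S crRNA 8 and Map2 crRNA 1.

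The fold change ran with gene length across the whole table. The median log2 fold change of RfxCas13d over dRfxCas13d with targeting crRNAs was 0.21 for the 1538 genes with 1000 to 2000 nt of exons, and -0.25 for the 2085 genes above 8000 nt. Rnpc3 has 6627 nt and Snrnp48 10129 nt of annotated exons, the longest of the 7, and Snrnp25 has 1041 nt, the shortest. With a lowess trend on exon length removed, 3 of the 7 proteins passed, beside 76.9% of all genes. Snrnp25 was higher by 0.42 (adjusted p = 5.1e-09), Rnpc3 lower at -0.43 (adjusted p = 4.0e-12) and Snrnp48 lower at -0.23 (adjusted p = 3.4e-05). The RNAs lay far above the trend, which was 0.13 at the length of Rnu11 and 0.14 at that of Rnu12. Among the 507 tested genes with under 300 nt of exons, Rnu12 ranked at place 3 and Rnu11 at place 5 with a pseudocount of 1, in a group with a median of 0.15. With a pseudocount of 0.1 Rnu11 was at place 1 and Rnu12 at place 2. Both RNAs were chosen by this difference, so a high place was set by that choice.

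**Figure D4:**
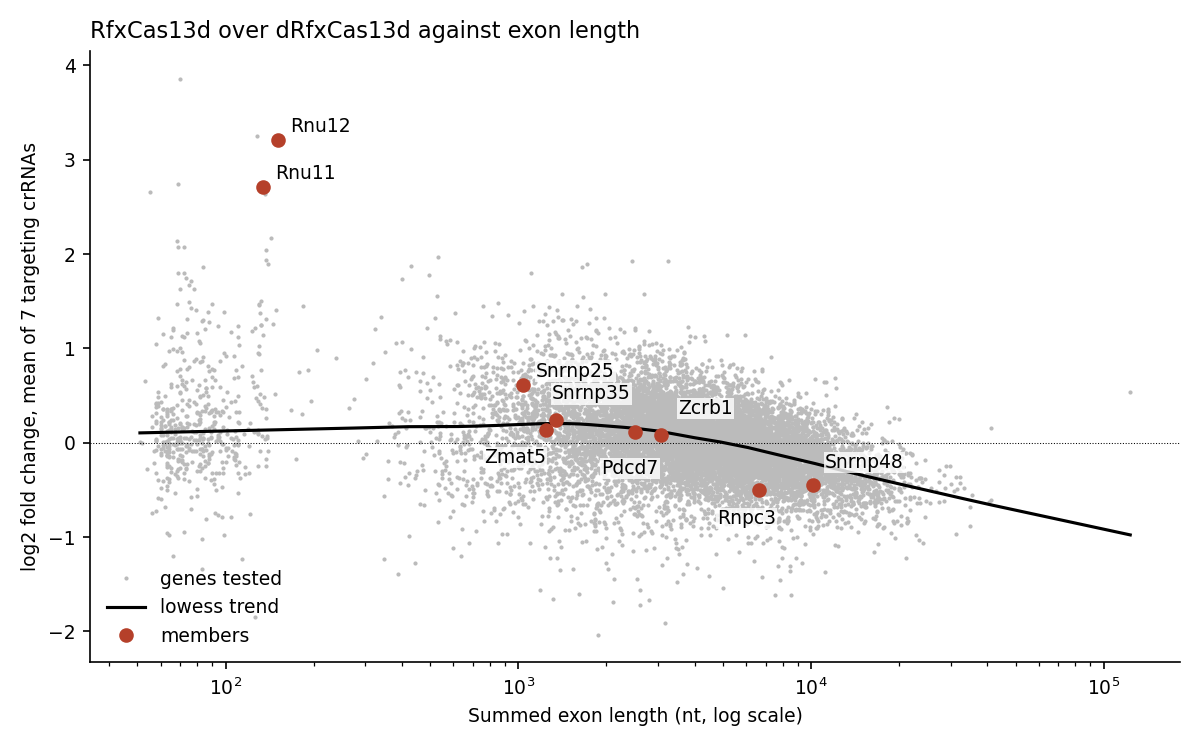
log2 fold change of RfxCas13d over dRfxCas13d (mean of the 7 targeting crRNAs) against summed exon length on a log axis, for the genes tested in grey, the 9 members in red and the lowess trend as a line. Rnu11 and Rnu12, which were chosen by this difference, stand far above the trend. The 7 proteins lie within the cloud, Snrnp25 above the line and Rnpc3 and Snrnp48 below it.

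Other parts of the splicing machinery were set beside the members through lists chosen with earlier results known. Among all 13293 genes tested 40.6% rose and 38.1% fell, and under quantile normalization 4928 rose and 5446 fell. The Sm proteins, which form the ring on U11 and U12 as on the major snRNAs, rose in 7 of 7 tested genes, with a median of 0.75, and all 7 also rose under quantile normalization (median 0.49). Snrpb averaged 268 FPKM in RfxCas13d and 149 FPKM in dRfxCas13d targeting libraries and rose by 0.87, Snrpe rose by 0.76, Snrpd2 by 0.75 and Snrpd3 by 0.43. Of the SF3b proteins, shared by both spliceosomes, 5 of 7 rose and 1 fell, with Sf3b5 at 1.07 and Phf5a at 1.06, but under quantile normalization 3 rose and 3 fell. Of the U1 and U2 proteins, which belong to the major spliceosome, 8 of 8 rose (median 0.23, with Snrpa1 at 0.80 and Sf3a2 at 0.57), and 5 rose and 1 fell under quantile normalization.

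Of 9 tested proteins of the minor spliceosome beyond the U11/U12 particle, 5 rose, 1 fell and 3 did not pass, with a median of 0.07. Among all genes tested, 40.6% rose and 38.1% fell. Txnl4b rose by 0.41, Scnm1 by 0.31, Cript by 0.26 and Ccdc84 by 0.20, and the one that fell was Rbm48, named after its value was seen, by 0.23. With the length trend removed Cript was at 0.07 (adjusted p = 0.086). Of the 23 tested tri-snRNP proteins 18 rose and 3 fell (median 0.25; 15 and 5 under quantile normalization), with Snu13, which binds the U4 and U4atac RNAs, at 0.89 and Lsm4 at 0.62. Of the 18 genes for snRNP assembly and import 12 rose and 3 fell (10 and 6 under quantile normalization), with Ncbp2, a cap-binding subunit, at 0.54.

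For the genes that make snRNAs, the shares of calls lay near those of all genes (40.6% higher, 38.1% lower). Of 11 snRNA transcription genes 4 rose and 6 fell, with Snapc2, a subunit of the snRNA promoter-binding complex, at 0.61, Ice2, a subunit of the little elongation complex, at -0.56 and Pou2f1, a transcription factor, at -0.43, which was -0.05 (adjusted p = 0.092) with the length trend removed. Of 16 genes for snRNA 3′ processing 7 rose and 8 fell, with the Integrator subunits Ints6 at -0.73, Ints9 at -0.71, Ints2 at -0.45 and Ints8 at -0.39. Each of these 4 was lower under the other scalings too. With the length trend removed Ints6 was at -0.35, Ints9 at -0.62, Ints2 at -0.22 and Ints8 at -0.27. Some Integrator subunits rose, such as Ints1 at 0.35 and Ints14 at 0.23, both named after their values were seen.

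**Figure D5:**
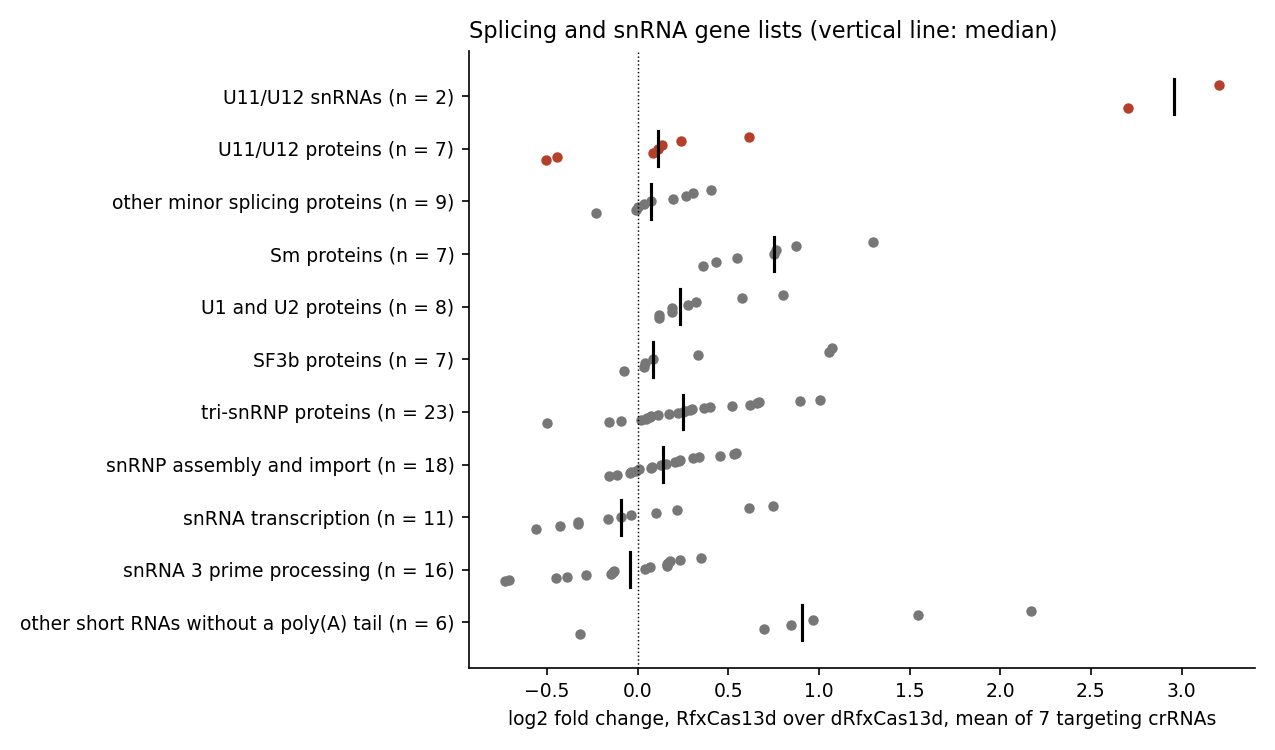
log2 fold change of RfxCas13d over dRfxCas13d (mean of the 7 targeting crRNAs) for each tested gene of 11 lists, one point a gene, with a vertical line at each median and the members in red. Rnu11 and Rnu12, which were chosen by this difference, lie at 2.71 and 3.21, past every protein of the lists. Their 7 partners, chosen by function, spread from -0.51 to 0.61.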

How the data were processed

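N2a libraries were made from GFP-positive cells 48 h after transfection with a poly(A)-selecting kit and read as paired ends. The authors deposited FPKM, made from reads trimmed by Trim Galore, aligned by Subread (mm10) and counted per gene by featureCounts. For these tools the version, annotation and strand setting were not given in the sources used here. DESeq2 was used by the authors on counts, whereas the table holds FPKM, so limma 3.58.1 in R 4.3.3 was used instead.

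Each library was divided by a median-of-ratios factor, and log2(FPKM + 1) was fitted for 13293 genes reaching 1 FPKM in 2 or more of 36 libraries, with 1 term per group, all 18 groups in the fit and Benjamini-Hochberg adjustment at 0.05. The adjusted p alone, with no fold threshold, was chosen as the call for proteins after seeing the data. Fragments were recovered from FPKM steps of 2127 single-exon genes (95.4 to 99.0% of values whole within 0.1 fragment). Intervals of fragment ratios are 95% exact intervals, conditional on the summed fragments of both sides. Those of the proteins are 95% intervals of the limma fit. Fits were tested on simulated data. Positions and exon lengths came from GENCODE M21.

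The members and lists were chosen with earlier results of these data known. Genes named were the members, up to 4 of each list with the smallest p, genes within 5000 bases of Rnu11 or Rnu12, and the 5 genes with the nearest profile to each. Alternatives were pseudocounts of 0.5 and 0.1, no filter or a mean FPKM of at least 5, other scalings, a replicate block, fits of the compared libraries alone, each library left out, and removal of the lowess trend on exon length (span 0.3). U12-type intron retention was not analysed here. Figures were drawn with matplotlib 3.10.9 in Python 3.11.15. Some marker genes are not reported here.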

Additional observations from a re-analysis of the deposited data

Results flagged for a closer look

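The nuclease difference of Snrnp25 was larger with targeting crRNAs than with NT crRNA by 0.37 ± 0.12 on the log2 scale (limma interaction, adjusted p = 0.023), a difference between conditions found by a test of the difference itself. It was lost when any of 3 of the 4 NT libraries was left out (adjusted p = 0.066 to 0.13) and was 0.17 (adjusted p = 0.31) with the exon length trend removed.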

How the results depend on the processing

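Of 1484 protein values under other settings, 1389 kept their direction and side of the threshold, 68 no longer passed, 20 newly passed and 7 reversed. Under quantile normalization Zcrb1 turned to -0.15 for the mean of targeting crRNAs, -0.10 with Sik3-S crRNA 1, -0.023 with Sik3-S crRNA 8, -0.033 with Map2 crRNA 1 and -0.24 with Mapt crRNA 4. With the exon length trend removed Zcrb1 was at -0.031 and Pdcd7 at -0.040, and the counts of proteins that passed were 3 for the mean, 1 with NT crRNA, 1 with Sik3-S crRNA 1, 2 with Sik3-S crRNA 8, 3 with Map2 crRNA 1, 1 with Map2 crRNA 3 and 2 with Mapt crRNA 4. In fits of the compared libraries alone, 0 passed with no crRNA, 0 with NT crRNA, 3 with Sik3-S crRNA 1 and 2 with Mapt crRNA 4. The cause was not tested. Genes called at 2-fold numbered 314, against 523 and 873 with pseudocounts of 0.5 and 0.1 and 172 at a mean FPKM of at least 5, a filter that Rnu11 does not pass. The ranks of both RNAs under other pseudocounts and the comparisons within a nuclease without 1 library were added after seeing the data. With a pseudocount of 0.1 the mean difference was 4.80 for Rnu11 and 3.99 for Rnu12.

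Leaving out each library in turn gave 6 to 7 proteins for the mean, where Zmat5 passed in 9 of 28 fits, and 308 to 332 genes at 2-fold. The counts were 0 to 1 with no crRNA, 0 to 2 with NT crRNA, 3 to 5 with Sik3-S crRNA 1, 3 to 5 with Sik3-S crRNA 8, 3 to 4 with Map2 crRNA 1, 2 to 3 with Map2 crRNA 3, 2 to 4 with Mapt crRNA 4, 3 to 4 with Mapt crRNA 6, 3 to 4 with Rbfox3 crRNA 5 and 0 to 2 for the targeting interaction. No pairing by replicate number was seen in the gene values: over 153 pairs of groups, same-numbered deviations correlated at -0.12 to 0.08. Replicate 2 was the deeper library in every RfxCas13d group and in some dRfxCas13d groups, so whether the numbers mark a batch cannot be told from this. A replicate block gave 6 proteins and 314 genes for the mean, and Snrnp35 with Map2 crRNA 1 was lost (adjusted p = 0.052).

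With 1 fragment of Rnu11 worth 0.761 to 1.07 FPKM in dRfxCas13d libraries, a level there below that was not detectable.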

Other observations

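Replication-dependent histone genes and snoRNAs, classes chosen after seeing the genes nearest to Rnu11 and Rnu12, were also higher in RfxCas13d targeting libraries. Of 50 tested histone genes 47 rose and 0 fell (limma), where 40.6% of all genes rose and 38.1% fell. Their median log2 fold changes were 1.10 with targeting crRNAs, 0.20 with NT crRNA and -0.03 with no crRNA. Of 102 tested snoRNAs 73 rose and 0 fell, with medians of 0.97, 0.39 and -0.04 in the same conditions. The histone and snoRNA genes that prompted the choice are counted here, so these counts are a description only.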
